A study of Mus musculus with 12 samples.

Results

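The genes described here are 29 mouse genes of DNA repair and of the DNA damage checkpoint, chosen by name with earlier results of these data known, of which 25 were measured. They stand among 22180 genes measured on the same arrays. Rad54b, Fanca and Apex1 share their annotated probe set with another gene, and Xrcc2 has no probe set of its own in the platform annotation, so these 4 were not analysed here. The 25 genes fall into 8 of homologous recombination, 4 of the Fanconi pathway, 4 checkpoint kinases, 3 of end joining, 5 of base excision and 1 of mismatch repair.

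The RNA came from mouse keratinocytes, the main cells of the epidermis, grown in culture in KGM-2 medium and profiled on Affymetrix whole-transcript arrays. There were 3 arrays in each of 4 groups, which were Atg7 f/f K14::Cre + cells (KO, autophagy deficient) given paraquat, the same KO cells after sham treatment, Atg7 f/f K14::Cre - cells (wt, autophagy competent) given paraquat, and these wt cells after sham treatment. Paraquat, a herbicide that passes electrons to oxygen and forms superoxide, was given at 20 µM to cultures at partial confluence, and RNA was taken 48 h later. Both genotypes carry the conditional Atg7 alleles, and Cre is driven from the promoter of a basal keratin. Cells that never used this promoter, and do not descend from cells that did, keep Atg7. KO and wt cells thus differ in Cre as well as in Atg7, and the parts of these cannot be told apart here. The design text calls the arrays biological triplicates without tying them to animals, so the p-values below measure the spread between these arrays. The main fit pools this spread over all 4 groups, although it was unequal. The mean log2 level of the 25 genes had an SD of 0.03 in KO sham arrays and 0.21 in wt sham arrays. In paraquat arrays this SD was 0.10 in KO and 0.04 in wt. For comparisons with wt sham, the pooled SE can thus be smaller than the spread of those arrays alone would give.

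Atg7 had signals of 96 to 148 in the 6 KO arrays, against 286 to 457 in the 6 wt arrays. The 7 keratinocyte markers were bright in all groups, with signals of 801 or more. Of these, 2 fell under paraquat in each genotype, where 12.6% of all genes fell in KO and 14.3% in wt. Krt14 averaged 9451 in KO paraquat arrays against 10984 in KO sham, and 8960 in wt paraquat against 10883 in wt sham. Itgb4, an integrin of the basal layer, averaged 1217 in KO paraquat against 1937 in KO sham (log2 -0.67), and 1031 in wt paraquat against 2388 in wt sham (log2 -1.20). Signals are RMA values on a linear scale, the median per array was 42 to 45, and no level of background is given for them. Of the 25 genes, 8 had a mean signal under 45 in at least 1 group (Bard1, Brca1, Brca2, Fancb, Mutyh, Palb2, Rad51ap1 and Rad54l), and the data do not show whether such levels exceed background.

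Homologous recombination copies an intact sister chromatid to mend a broken chromosome, and with the Fanconi pathway, which removes crosslinks between strands, it acts mainly in cells that replicate their DNA. Many of its genes are transcribed in S phase under E2F factors, while the Ku proteins of end joining and the glycosylases that cut out oxidised bases serve cells in all phases. ATM and ATR are the kinases that sense breaks and stalled forks, and CHK1 and CHK2, encoded by Chek1 and Chek2, pass their signal on to halt the cycle.

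Promoter windows were read for 23 of the 25 genes from RefSeq (GRCm38.p6), each covering 250 bases before to 50 after the gene's start. They were searched on both strands for the E2F words TTTCGCGC, TTTGGCGC, TTTCCCGC and TTTGCCGC, for CCAAT and for the CHR words TTTGAA and TTCGAA, and no matches of different motifs overlapped. An E2F word stood in 5 of the 23 windows (21.7%), those of Brca2, Bard1, Chek2, Xrcc6 and Msh6, against 2.92% of 17491 windows of protein-coding genes. CCAAT stood in 15 of 23 (65.2%) against 39.0%, and a CHR word in 2 of 23 (8.7%) against 18.2%. The median GC content was 57.3% in these windows and 56.3% in all. The windows of 4 of the 5 genes with an E2F word, the motif held by the smallest share of all protein-coding windows, are printed as examples, 3 from genes that fell under paraquat in KO cells and 1, Msh6, from a gene that did not. Xrcc6, which fell only narrowly there, is left out for length. Of the 17 windows whose genes fell there, 4 held the word (23.5%), and of the other 6 windows 1 (16.7%). Capitals mark the E2F word.
Brca2 (chr5:150522371-150522670, plus strand): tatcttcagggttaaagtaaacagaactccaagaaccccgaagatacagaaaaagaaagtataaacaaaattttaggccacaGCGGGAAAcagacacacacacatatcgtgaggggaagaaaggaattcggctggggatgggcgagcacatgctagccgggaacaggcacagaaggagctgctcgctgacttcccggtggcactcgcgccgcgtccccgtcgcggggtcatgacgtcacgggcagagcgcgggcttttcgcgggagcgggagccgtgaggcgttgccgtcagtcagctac
Bard1 (chr1:71102923-71103222, minus strand): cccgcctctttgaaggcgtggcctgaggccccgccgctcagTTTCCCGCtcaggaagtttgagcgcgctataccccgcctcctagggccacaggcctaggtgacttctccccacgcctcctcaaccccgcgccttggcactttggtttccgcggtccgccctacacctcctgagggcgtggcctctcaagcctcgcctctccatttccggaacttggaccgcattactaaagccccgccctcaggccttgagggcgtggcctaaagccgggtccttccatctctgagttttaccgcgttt
Chek2 (chr5:110839733-110840032, plus strand): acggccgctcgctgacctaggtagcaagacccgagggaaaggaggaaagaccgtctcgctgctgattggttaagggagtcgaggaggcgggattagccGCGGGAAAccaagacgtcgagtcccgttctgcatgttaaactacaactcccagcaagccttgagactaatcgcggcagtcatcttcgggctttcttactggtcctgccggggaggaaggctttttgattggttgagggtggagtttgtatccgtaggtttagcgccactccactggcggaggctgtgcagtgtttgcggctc
Msh6 (chr17:87974800-87975099, plus strand): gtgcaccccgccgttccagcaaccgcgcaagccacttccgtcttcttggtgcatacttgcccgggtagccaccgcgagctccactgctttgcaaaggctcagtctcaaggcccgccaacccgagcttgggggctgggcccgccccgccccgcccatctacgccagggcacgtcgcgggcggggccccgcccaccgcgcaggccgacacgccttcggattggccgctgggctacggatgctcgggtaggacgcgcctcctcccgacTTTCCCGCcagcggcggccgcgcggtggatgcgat

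In KO cells given paraquat, 19 of the 25 genes fell and 0 rose (limma, adjusted p under 0.05), with a median log2 change of -0.97 against 0.01 over all genes tested, of which 12.6% fell and 14.5% rose. At an unadjusted p under 0.05 the counts were also 19 lower and 0 higher. The shares of all genes at an unadjusted p were not counted, here or in the comparisons below. All 8 genes of homologous recombination, all 4 of the Fanconi pathway and all 4 checkpoint kinases fell, with 1 of 3 in end joining, 2 of 5 in base excision and 0 of 1 in mismatch repair. In RNA from whole cultures, fewer cells that express a gene and less RNA per cell cannot be told apart.

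Brca2, which loads the strand exchange recombinase onto broken ends, had signals of 43, 57 and 55 in KO paraquat arrays, against 150, 158 and 134 in KO sham arrays. The groups did not overlap, and Brca2 was 2.87-fold lower (log2 -1.52 ± 0.17, with the SE of the fit and 3 arrays in each group, limma adjusted p = 1.6e-05). Blm, the helicase that dissolves crossed strands, had 127, 117 and 165 under paraquat and 338, 395 and 354 in sham, and fell by 1.42 ± 0.18 on the log2 scale (adjusted p = 6.18e-05). Exo1, a nuclease that resects ends and also serves mismatch repair, had 87, 77 and 95 under paraquat and 230, 183 and 201 in sham (log2 -1.24). All arrays of these genes were lower under paraquat than in sham. Brca1 and its partner Bard1, which form a ubiquitin ligase at breaks, changed by -1.05 and -1.07. Brca1 was at 46, 46 and 47 under paraquat against 95, 97 and 95 in sham, and the arrays within each group differed by at most 2 units of signal. Rad54l, a motor protein that moves nucleosomes during strand invasion, had 38, 35 and 52 under paraquat and 94, 93 and 91 in sham (log2 -1.17 ± 0.26, adjusted p = 0.00378). Palb2, which bridges BRCA1 and BRCA2, changed by -0.88, and Rad51ap1, which stimulates strand invasion, by -0.97.

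Among Fanconi genes, Fancd2, the subunit that is ubiquitinated at crosslinks, had signals of 87, 79 and 90 in KO paraquat arrays, against 239, 242 and 243 in KO sham arrays. It was 2.83-fold lower (log2 -1.50 ± 0.17, adjusted p = 2.13e-05). Its partner Fanci had 54, 56 and 74 under paraquat and 91, 94 and 95 in sham, a smaller fall (log2 -0.62 ± 0.17, adjusted p = 0.0157). Fancb, a subunit of the core ligase complex, had 31, 30 and 31 under paraquat and 72, 77 and 84 in sham (log2 -1.34 ± 0.14). Brip1, a helicase that binds BRCA1, fell by 1.17 ± 0.12. None of these arrays overlapped between the treatments.

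The checkpoint kinase genes also fell in KO cells. Atm had signals of 90, 112 and 104 under paraquat, against 214, 216 and 208 in sham, and had the smallest adjusted p of the 25 genes (log2 -1.07 ± 0.09, adjusted p = 2.46e-06). Atr had 111, 159 and 149 under paraquat and 202, 272 and 217 in sham (log2 -0.73 ± 0.14). Chek1 had 68, 64 and 87 under paraquat and 170, 146 and 155 in sham (log2 -1.12 ± 0.16). Chek2 moved least of the 4, with 140, 141 and 192 under paraquat and 252, 189 and 220 in sham. Its arrays overlapped by 1 value on each side (log2 -0.49 ± 0.14, adjusted p = 0.0177).

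The remaining groups were mixed. Lig1, the ligase that seals Okazaki fragments and completes base excision, had signals of 119, 98 and 128 in KO paraquat arrays against 296, 272 and 344 in KO sham arrays (log2 -1.40 ± 0.20, adjusted p = 1.54e-04). Parp1, which marks nicks with poly-ADP-ribose, had 216, 211 and 245 under paraquat and 330, 302 and 303 in sham, a shallower fall with no overlap (log2 -0.48 ± 0.09). The other base excision genes did not pass. Ogg1, the glycosylase of oxidised guanine, had 94, 92 and 91 under paraquat and 94, 81 and 105 in sham (log2 -0.01 ± 0.10). Mutyh, which removes adenine paired with oxidised guanine, changed by -0.25 ± 0.15, and the scaffold gene Xrcc1 by -0.12 ± 0.11. Of the Ku genes Xrcc6 passed narrowly (log2 -0.38 ± 0.13, adjusted p = 0.0485) and Xrcc5 did not (-0.08 ± 0.11). Lig4, the ligase of end joining, was at 0.22 ± 0.12, and Msh6, a mismatch recognition gene, at 0.18 ± 0.11. When only changes of at least 1.5-fold were tested, 8 of the 25 genes fell in KO cells, against 371 of all 22180 genes. Chek2 and Fanci lost their call without KO paraquat array 1 or 2, Chek2 also without KO sham array 1, and Xrcc6 without KO paraquat 1 or 2, KO sham 1 or 2, wt paraquat 1 or wt sham 3.

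**Figure D1:**
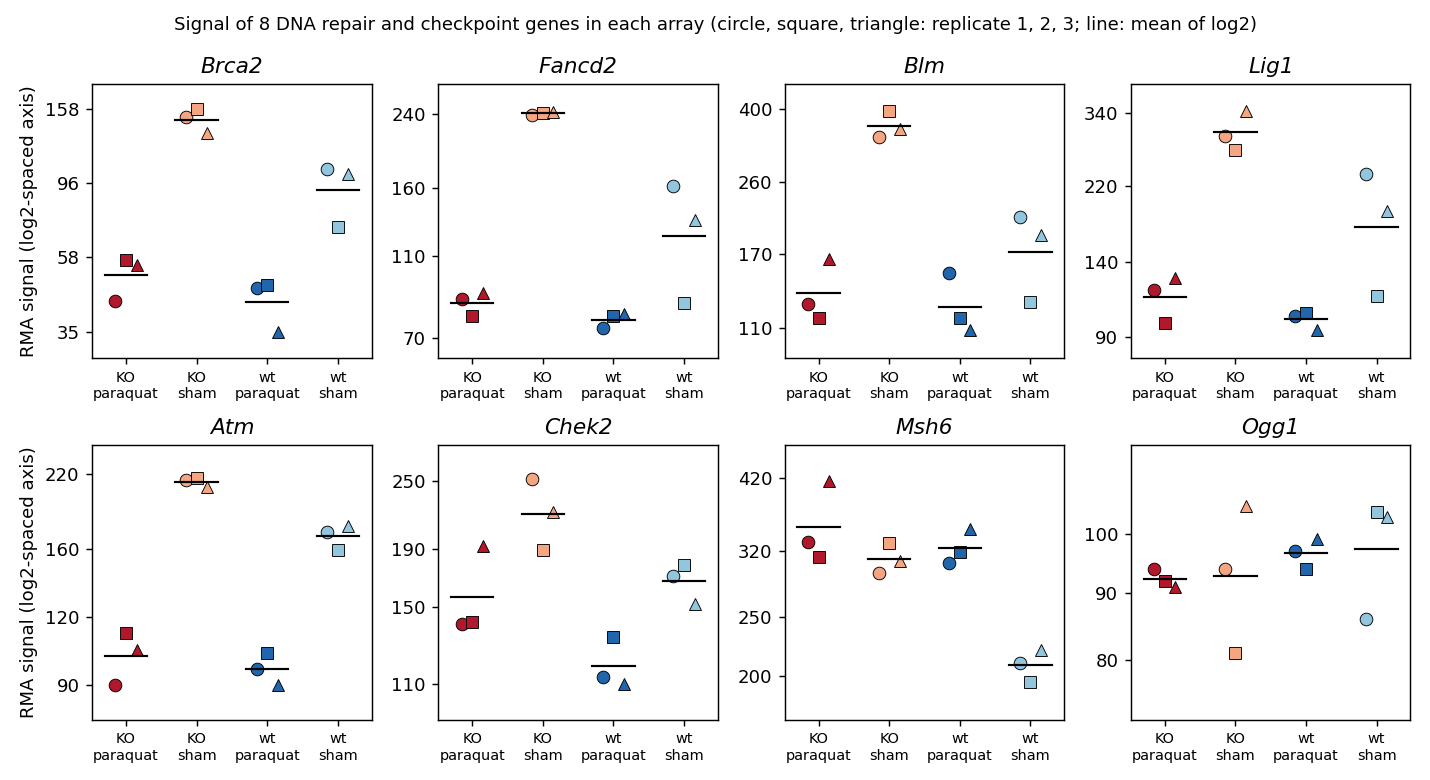
RMA signal (log2-spaced axis) of 8 of the 25 genes in each of the 12 arrays, with KO paraquat, KO sham, wt paraquat and wt sham from left to right and the mean of log2 values as a line. Brca2, Fancd2, Blm, Lig1 and Atm are highest in KO sham and low in both paraquat groups, Msh6 is low in wt sham alone (196 to 221), and Ogg1 overlaps between all groups (81 to 105).

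In wt cells given paraquat, 15 of the 25 genes fell and 2 rose (limma), with a median log2 change of -0.49 against 0.01 over all genes, of which 14.3% fell and 14.9% rose. At an unadjusted p under 0.05 the counts were 17 lower and 2 higher. All 15 that fell in wt are among the 19 that fell in KO, and Blm, Fanci, Palb2 and Rad54l passed in KO cells alone. Whether they differ between genotypes is a separate test, given below. By group, 5 of 8 homologous recombination genes, 3 of 4 Fanconi genes, all 4 checkpoint kinases, 1 of 3 end joining genes and 2 of 5 base excision genes fell.

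Brca2 again had the largest fall, with signals of 47, 48 and 35 in wt paraquat arrays against 105, 71 and 102 in wt sham arrays (log2 -1.09 ± 0.17, n = 3 arrays per group, adjusted p = 1.92e-04). Atm had 96, 103 and 90 under paraquat and 172, 159 and 176 in sham (log2 -0.81 ± 0.09, adjusted p = 1.54e-05). Atr had 122, 127 and 115 under paraquat and 241, 198 and 225 in sham (log2 -0.86 ± 0.14). These groups did not overlap. Fancd2 had 74, 79 and 80 under paraquat, and its sham arrays spread from 85 to 162 (log2 -0.66 ± 0.17, adjusted p = 0.00929). Lig1 had 102, 104 and 94 under paraquat, against 237, 115 and 190 in sham (log2 -0.79 ± 0.20). Parp1 had 190, 180 and 206 under paraquat and 313, 273 and 277 in sham (log2 -0.58 ± 0.09), and Xrcc6, a Ku subunit, 67, 82 and 62 under paraquat and 96, 122 and 111 in sham (log2 -0.64 ± 0.13). Neither of these overlapped between treatments. Exo1 (log2 -0.72), Chek1 (-0.73), Brip1 (-0.65), Bard1 (-0.65), Brca1 (-0.58), Chek2 (-0.49), Fancb (-0.46) and Rad51ap1 (-0.36) completed the falls. Rad51ap1 lost its call without any wt paraquat array or wt sham array 1 or 3, Fancb without wt paraquat array 1 or 2 or wt sham array 1, and Chek2 without wt paraquat array 1 or 3. In a fit to the 6 wt arrays alone 10 genes fell, against 2844 of all 22180 genes. Lig1 (adjusted p = 0.0526), Brca1 (0.0628), Rad51ap1 (0.0633), Fancd2 (0.0686) and Fancb (0.0902) missed the threshold there.

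The genes that rose in wt were Msh6 and Lig4. Msh6 had signals of 306, 318 and 347 in wt paraquat arrays against 210, 196 and 221 in wt sham arrays (log2 0.63 ± 0.11, adjusted p = 4.69e-04). Both KO groups lay in the upper range too, at 331, 312 and 416 under paraquat and 294, 329 and 308 in sham, so the wt sham arrays were the low ones. Lig4 had 134, 144 and 176 under paraquat and 116, 126 and 108 in sham (log2 0.37 ± 0.12, adjusted p = 0.0287), without overlap. Lig4 lost its call without wt paraquat array 3 or wt sham array 1 or 3, and in a fit to the 6 wt arrays alone, where Msh6 was the 1 gene that rose. Ogg1 (log2 -0.01 ± 0.10), Xrcc5 (0.06 ± 0.11), Fanci (0.12 ± 0.17), Xrcc1 (-0.24 ± 0.11), Mutyh (-0.28 ± 0.15) and Palb2 (-0.23 ± 0.12) did not pass.

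The second wt sham array was lower than the other wt sham arrays in many of these genes. It was the lowest of the 3 for 19 of the 25 genes (76.0%), against 28.8% of all genes, and for 15 of 18 genes of a proliferation list (83.3%). Rad54l had 32 in this array against 80 and 58 in the others, Lig1 115 against 237 and 190, and Fanci 36 against 62 and 58. Chek2, Xrcc6, Xrcc1, Lig4 and Ogg1 were not lowest there, and neither was Fancb. Without this array 16 genes fell in wt, with a median of -0.62. Blm (log2 -0.68, adjusted p = 0.00717) and Rad54l (-0.76, adjusted p = 0.00967) then passed, and Chek2 did not (-0.44, adjusted p = 0.0563). When only changes of at least 1.5-fold were tested, 0 of the 25 fell in wt, against 492 of all 22180 genes.

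**Figure D2:**
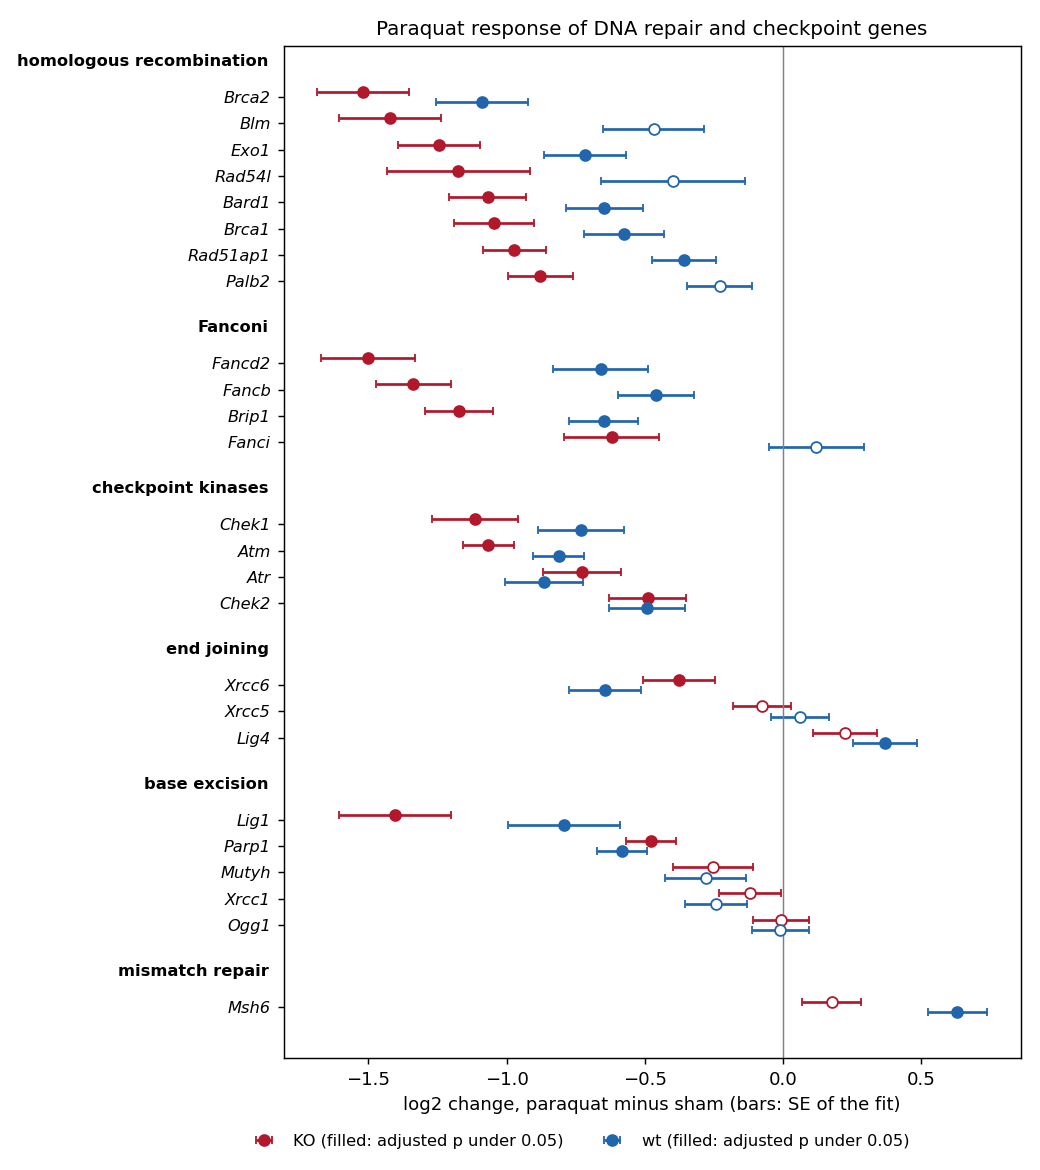
Log2 change under paraquat (paraquat minus sham) of the 25 genes by pathway in KO (red) and wt (blue), with SE of the fit as bars and filled points where the adjusted p is under 0.05. The homologous recombination and Fanconi genes lie left of 0 in KO (-0.62 to -1.52) and nearer to it in wt, whereas Chek2, Ogg1 and Mutyh have nearly the same change in both.

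KO and wt cells were compared next in sham cultures. These cells differ in Atg7 and in Cre, so a difference between them cannot be assigned to either alone. In KO sham arrays 15 of the 25 genes were higher and 0 lower than in wt sham arrays, with a median log2 difference of 0.63 against -0.01 over all genes, of which 4.58% were higher and 5.67% lower. At an unadjusted p under 0.05, 18 were higher and 0 lower. The 15 were 6 of 8 homologous recombination genes, all 4 Fanconi genes, Atm and Chek1, Xrcc5, Lig1 and Msh6. Of these, 13 are also among the genes that fell under paraquat in KO, a count for which the KO sham arrays serve in both comparisons.

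Fancb had signals of 72, 77 and 84 in KO sham arrays, against 48, 33 and 32 in wt sham arrays, and was 2.09-fold higher (log2 1.07 ± 0.14, adjusted p = 3.9e-04). Blm had 338, 395 and 354 in KO against 211, 128 and 190 in wt (log2 1.07 ± 0.18, adjusted p = 0.00256). Fancd2 had 239, 242 and 243 in KO against 162, 85 and 134 in wt (log2 0.98 ± 0.17). Every KO sham array stood above every wt sham array for these genes, and likewise for Brip1, at 137, 148 and 138 in KO and 75, 58 and 88 in wt (log2 0.96 ± 0.12). Fanci (0.88), Lig1 (0.81), Exo1 (0.79), Brca1 (0.76), Brca2 (0.69), Chek1 (0.67), Palb2 (0.65), Rad51ap1 (0.63), Msh6 (0.57), Xrcc5 (0.44) and Atm (0.33) were also higher. Rad54l had a difference as large (0.81 ± 0.26) but, with wt sham arrays from 32 to 80, did not pass (adjusted p = 0.0698). Bard1, whose sham arrays overlapped between genotypes, was at 0.33 ± 0.14 (adjusted p = 0.171). Parp1 (0.12 ± 0.09), Atr (0.05 ± 0.14), Ogg1 (-0.07 ± 0.10), Mutyh (0.07 ± 0.15), Lig4 (0.04 ± 0.12), Xrcc1 (-0.09 ± 0.11) and Xrcc6 (-0.25 ± 0.13) stayed within about 2 SE of 0.

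Without the second wt sham array 10 genes were higher in KO, with a median of 0.49, and Atm, Brca2, Chek1, Lig1 and Xrcc5 missed the threshold (adjusted p = 0.127, 0.0779, 0.0592, 0.0522 and 0.0657). The same 5 missed it without the first KO sham array. Brca2 and Xrcc5 also missed it without KO sham array 2, Lig1 without KO sham array 3, and Atm without any of the 6 sham arrays or wt paraquat array 1. Rad54l passed without wt sham array 1. From the 6 sham arrays alone 6 of the 25 were higher, against 450 of all 22180 genes. When only differences of at least 1.5-fold were tested, 0 of the 25 were higher, against 22 of all genes.

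The genotypes were then compared under paraquat. Of the 25 genes, 0 were higher and 0 lower in KO paraquat arrays than in wt paraquat arrays (limma), against 0.0992% and 0.451% of all genes. At an unadjusted p under 0.05, 4 were higher and 0 lower, and the median log2 difference was 0.13 against -0.0017 over all genes. The estimate was below 0 for 3 of the 25 genes. With 3 arrays per group, the lack of calls does not show that the levels are equal. Brip1 had the smallest p, with signals of 66, 57 and 65 in KO against 47, 46 and 46 in wt. Its arrays did not overlap (log2 0.43 ± 0.12, adjusted p = 0.176), and it passed only when the second wt sham array was left out of the fit (adjusted p = 0.0479). Chek2 had 140, 141 and 192 in KO against 113, 133 and 110 in wt (log2 0.40 ± 0.14, adjusted p = 0.285), close to its difference in sham (0.40 ± 0.14, adjusted p = 0.0976). Xrcc5 (0.30 ± 0.11) and Parp1 (0.22 ± 0.09) were the other two. For Palb2 (0.01 ± 0.12), Rad51ap1 (0.01 ± 0.12), Rad54l (0.03 ± 0.26) and Xrcc6 (0.02 ± 0.13) the estimate lay close to 0.

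**Figure D3:**
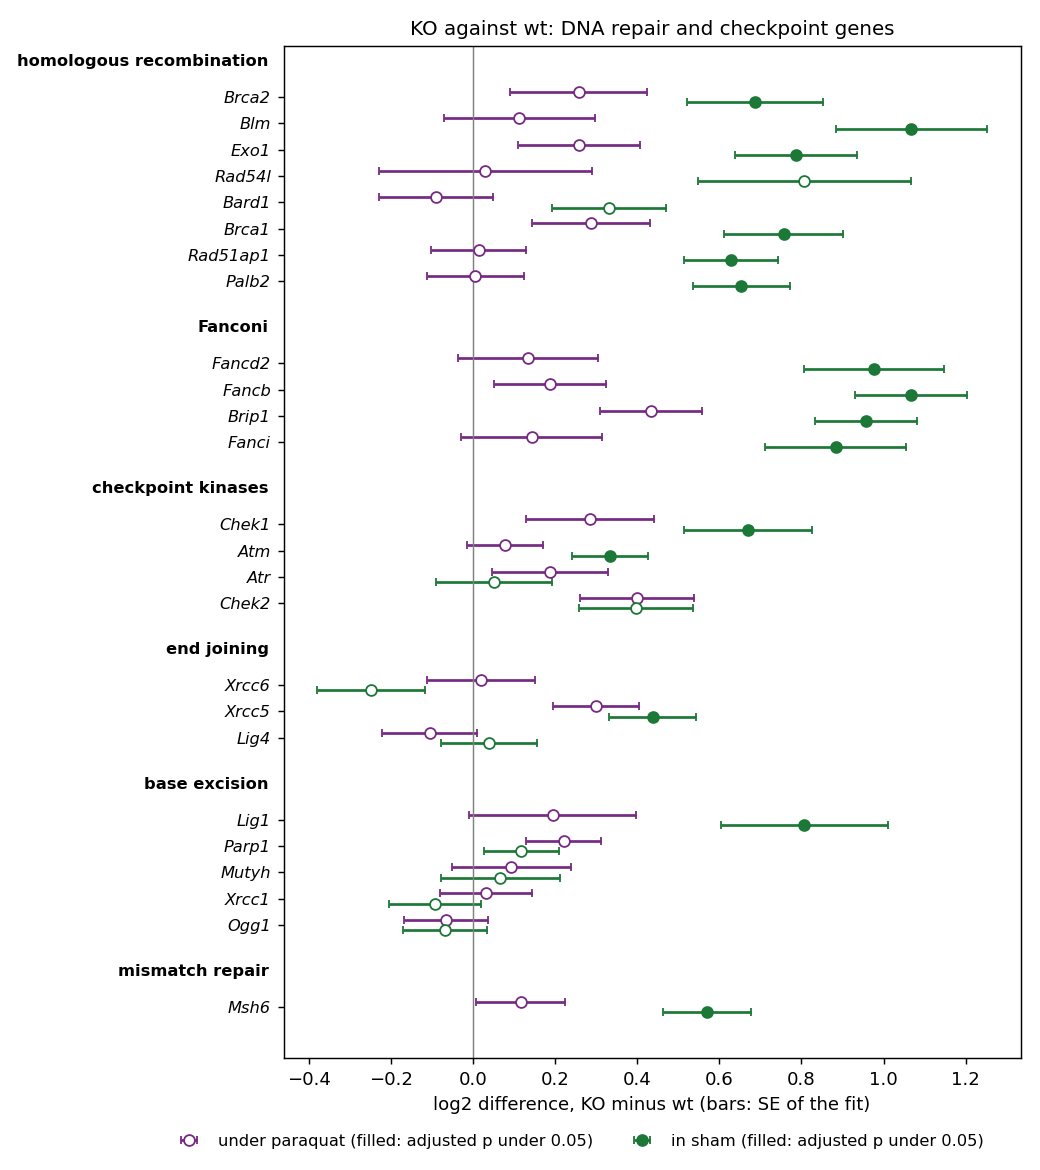
Log2 difference between genotypes (KO minus wt) of the 25 genes by pathway, under paraquat (purple) and in sham (green), with SE of the fit as bars and filled points where the adjusted p is under 0.05. In sham 15 points are filled, all right of 0, and under paraquat none is filled, with Brip1 farthest from 0 at 0.43.

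Next, the paraquat response of wt cells was subtracted from that of KO cells and the result tested for each gene. It passed for Fancb alone (log2 -0.88 ± 0.19, adjusted p = 0.033), so 1 of the 25 had a lower and 0 a higher difference, against 0.897% and 1.39% of all genes. At an unadjusted p under 0.05 there were 10 lower and 0 higher, and the median was -0.43 against 0.0007 over all genes. All genes were not counted at this unadjusted threshold, so the 10 have no share to stand against. After Fancb the smallest p belonged to Palb2 (-0.65 ± 0.17, adjusted p = 0.065), Rad51ap1 (-0.61 ± 0.16, adjusted p = 0.0719), Blm (-0.95 ± 0.26, adjusted p = 0.0802) and Fancd2 (-0.84 ± 0.24, adjusted p = 0.0953). With dim genes filtered out, 5 of the 25 passed as lower, these 4 and Fancb, against 349 lower and 539 higher of the 13115 genes kept. Fancb and Rad51ap1 had mean signals under 45 in every group but KO sham, whose level also enters the difference, so their calls after the filter are no independent support. The call of Fancb was lost when any array other than KO sham 1 or wt sham 1 was left out, and without wt sham 1 Palb2, Blm and Fancd2 passed beside it. For Ogg1 (0.00 ± 0.15), Chek2 (0.00 ± 0.20), Mutyh (0.03 ± 0.21) and Parp1 (0.10 ± 0.13) the estimated difference was near 0.

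Set by pathway, the median log2 change under paraquat was -1.12 in KO and -0.52 in wt for homologous recombination, and -1.26 and -0.55 for the Fanconi genes. For the checkpoint kinases it was -0.90 in KO and -0.77 in wt, for base excision -0.25 and -0.28, and for end joining -0.08 and 0.06. The medians are given as a description, since genes are not replicates of a treatment and the pathways were not tested against each other. The wt medians also depend on the second wt sham array. It differed from the other wt sham arrays by a median log2 of -0.55 in homologous recombination, -0.61 in Fanconi and -0.18 in checkpoint kinase genes. Without it the median difference between responses over the 25 genes was -0.25, against -0.43 with it. Medians by pathway without it were not computed. The mean log2 level of the homologous recombination genes was 5.72 ± 0.12 in KO paraquat (SD, n = 3 arrays), 6.88 ± 0.02 in KO sham, 5.61 ± 0.11 in wt paraquat and 6.17 ± 0.35 in wt sham. The order of groups by mean level was much the same from gene to gene: KO sham was highest for 20 of the 25, and wt paraquat lowest for 19. The order was not counted over all genes. Between the 2 paraquat groups 0 of the 25 passed the threshold, so their order is uncertain for each gene.

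Levels of a proliferation list moved in the same order. Its 18 measured genes, none of them described above, had mean log2 levels of 7.49 to 7.82 in KO paraquat arrays, 8.99 to 9.03 in KO sham, 7.26 to 7.42 in wt paraquat and 7.53 to 8.34 in wt sham, the lowest wt sham value being that of the second array. All 18 fell under paraquat in KO and 13 in wt, among them the replicative helicase genes Mcm7 (log2 -1.26 in KO) and Mcm2 (-1.09 in KO, -0.88 in wt) and the cycling marker Mki67 (-2.17 in wt). Of all genes 12.6% fell and 14.5% rose under paraquat in KO, and 14.3% fell and 14.9% rose in wt. In sham 17 of the 18 were higher in KO than in wt, against 4.58% of all genes. The part of proliferation in the repair gene results was not tested. Of 10 p53 targets 9 rose under paraquat in KO and 7 rose and 1 fell in wt, such as Mdm2, the p53 ubiquitin ligase (1.62 in KO, 1.65 in wt), Trp53inp1 (1.24 in KO) and Ccng1 (0.99 in wt). In KO sham against wt sham 6 of the 10 were lower and 2 higher, against 5.67% and 4.58% of all genes. The response was higher in KO than in wt by the test of the difference for 4 of the 10, against 1.39% of all genes. The part of p53 targets in the repair gene results was not tested.

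Markers of other cells that a keratinocyte culture could hold were also read. Of all genes 14.5% rose under paraquat in KO and 14.9% in wt. Of 7 melanocyte markers 4 rose under paraquat in each genotype, their mean log2 level being 6.18 to 6.32 in KO paraquat arrays against 5.54 to 5.70 in KO sham, and 6.17 to 6.43 in wt paraquat against 5.28 to 5.66 in wt sham. Of 5 endothelial markers 2 rose in KO and 3 in wt, with levels of 5.48 to 5.63 in KO paraquat against 5.10 to 5.14 in KO sham, and 5.605 to 5.673 in wt paraquat against 4.95 to 5.07 in wt sham. Of 5 leukocyte and Langerhans markers 2 rose in each genotype, with levels of 6.02 to 6.13 in KO paraquat against 5.65 to 5.74 in KO sham, and 6.28 to 6.35 in wt paraquat against 5.75 to 5.86 in wt sham. Of 7 fibroblast markers 1 rose in each, a share close to that of all genes. Their levels were 5.08 to 5.17 in KO paraquat against 4.91 to 5.05 in KO sham, and 5.24 to 5.45 in wt paraquat against 5.07 to 5.30 in wt sham. Single markers of 1 list differed widely. Among melanocyte genes Mlana had signals of 341, 340 and 392 in KO paraquat arrays against 77, 70 and 62 in KO sham, and 368, 371 and 398 in wt paraquat against 67, 73 and 53 in wt sham, Mitf had 165 to 291 over the 12 arrays, and the pigment enzyme gene Tyr 7 to 12. Kdr, an endothelial receptor gene, had 162, 147 and 137 in KO paraquat against 56, 45 and 73 in KO sham, and 295, 253 and 197 in wt paraquat against 51, 62 and 47 in wt sham, while Cdh5 had 28 to 36 over the 12 arrays. Cd68, a lysosomal gene used as a macrophage marker, had 1342, 1482 and 1214 in KO paraquat against 688, 677 and 585 in KO sham, and 1827, 1870 and 1778 in wt paraquat against 610, 559 and 593 in wt sham, while Ptprc, carried by all leukocytes, had 13 to 21. Mlana, Kdr and Cd68 thus did not overlap between treatments, and Tyr, Cdh5 and Ptprc were under the array median in all 12 arrays. The part of these markers in the repair gene results was not tested.

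**Figure D4:**
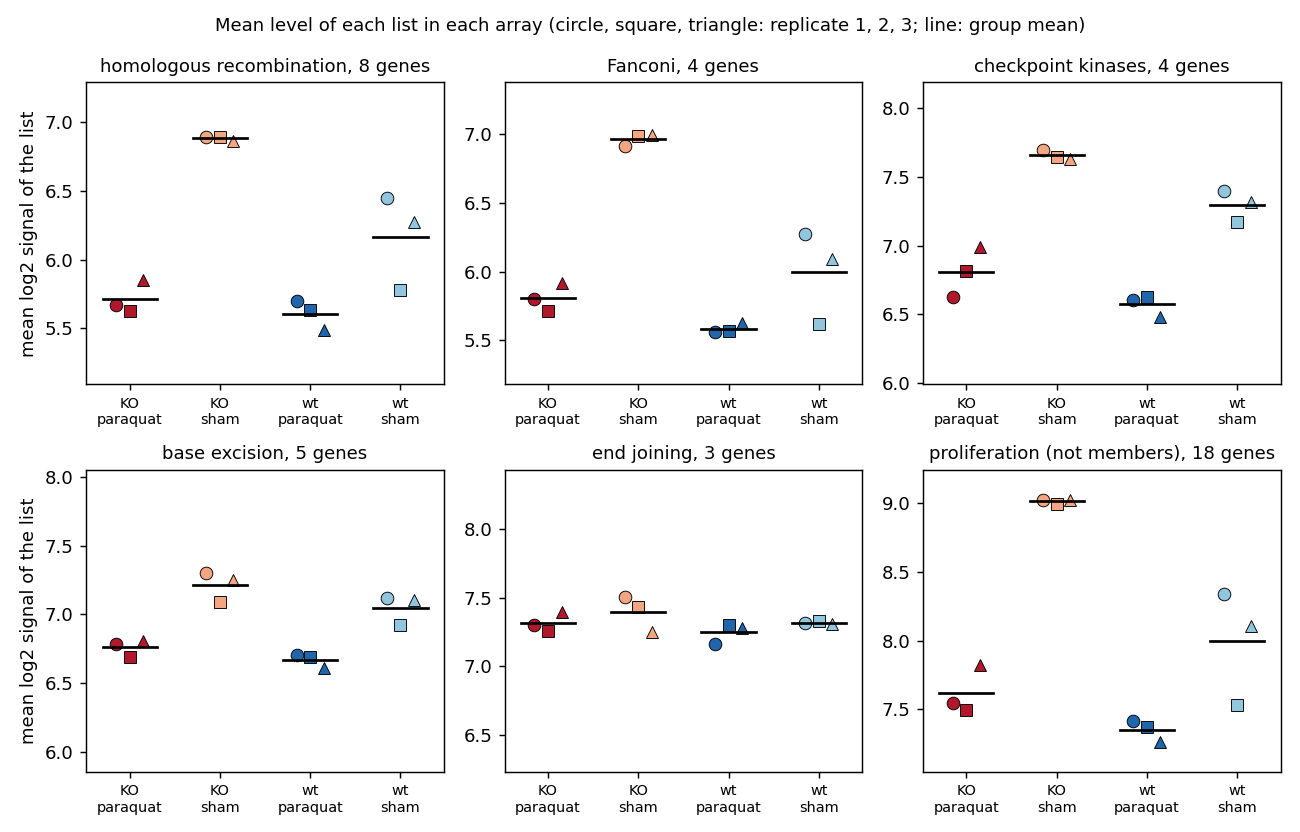
Mean log2 signal per array of 5 groups of repair and checkpoint genes and of the proliferation list, with equal spans on all vertical axes and KO paraquat, KO sham, wt paraquat and wt sham from left to right. Homologous recombination, Fanconi and proliferation genes share the high KO sham level and the low second wt sham array (square), while the end joining genes stay within 7.16 to 7.51 in all 12 arrays. The mean of the checkpoint kinases shows both traits to a smaller extent, with 7.17 in the second wt sham array, where Chek2 was not lowest. For base excision, KO sham (7.09 to 7.30) overlaps wt sham (6.92 to 7.12, the lowest being the second array). Of its 5 genes only 1, Lig1, passed as higher in KO sham, and Ogg1 and Xrcc1 were not lowest in the second wt sham array.

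Of 97 measured repair genes outside the 25, which include nucleotide excision and translesion genes, 37 fell and 14 rose under paraquat in KO (median log2 -0.13), and 28 fell and 20 rose in wt (median -0.13). Of all genes 12.6% fell and 14.5% rose in KO, and 14.3% fell and 14.9% rose in wt. The share of the 97 that rose in KO was thus close to that of all genes. The same shares of all genes apply to the counts by pathway that follow. In homologous recombination 12 of 23 fell and 3 rose in KO, and 5 fell and 5 rose in wt. Nbn, of the complex that first binds broken ends, changed by -1.12 in KO and -0.85 in wt, and Rpa2, which coats single strands, by -1.03 in KO. Rad51d, a recombinase paralogue, rose in both (0.98 in KO, 1.07 in wt). Among 13 other Fanconi genes 4 fell in KO, and 5 fell and 1 rose in wt, such as the deubiquitinase gene Usp1 (-0.66 in KO, -0.53 in wt), the ligase gene Fancl (-0.64 in KO), the translocase gene Fancm (-0.74 in KO) and Fance (-0.58 in wt). Among 14 other checkpoint genes 8 fell in KO, and 4 fell and 2 rose in wt. Clspn, the mediator between ATR and CHK1, changed by -1.38 in KO, H2ax, the histone phosphorylated at breaks, by -1.06 in KO, and Mdc1, which binds that histone, by -0.85 in KO and -1.06 in wt. Rad1, of the checkpoint clamp, rose by 0.33 in wt.

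Among 9 other end joining genes 2 fell and 1 rose in KO, and 4 fell and 1 rose in wt. Rif1, which holds back the resection of ends, was the lowest (-1.34 in KO, -1.28 in wt). Prkdc, the kinase bound by Ku, changed by -1.05 in KO, Nhej1 by 0.30 in KO and Trp53bp1 by -0.49 in wt. Among 14 other base excision genes 6 fell and 2 rose in KO, and 3 fell and 2 rose in wt, such as the glycosylase genes Neil3 (-0.91 in KO) and Ung (-0.65 in wt), the endonuclease gene Apex2 (-0.43 in KO), the end-cleaning gene Aptx (0.59 in KO) and the gap-filling polymerase gene Polb (0.61 in wt). Of 4 other mismatch repair genes 2 fell in each genotype, namely Msh3 (-0.66 in KO), Pms1 (-0.41 in KO, -0.33 in wt) and Pms2 (-0.41 in wt).

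In nucleotide excision, which removes bulky lesions, more genes rose than fell. Of its 14 genes 6 rose and 1 fell in KO, and 7 rose and 3 fell in wt. The incision nuclease genes Ercc5 (0.58 in KO, 0.74 in wt) and Ercc1 (0.94 in KO) rose, as did Cetn2 (0.61 in wt), while the helicase gene Ercc2 fell (-0.49 in KO). Of 6 translesion genes, whose polymerases copy damaged templates, 2 rose and 2 fell in each genotype. Polk rose (0.63 in KO, 0.72 in wt), Rev3l fell (-0.93 in KO, -0.88 in wt), and Rad18, which recruits these polymerases, fell (-1.26 in KO).

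**Figure D5:**
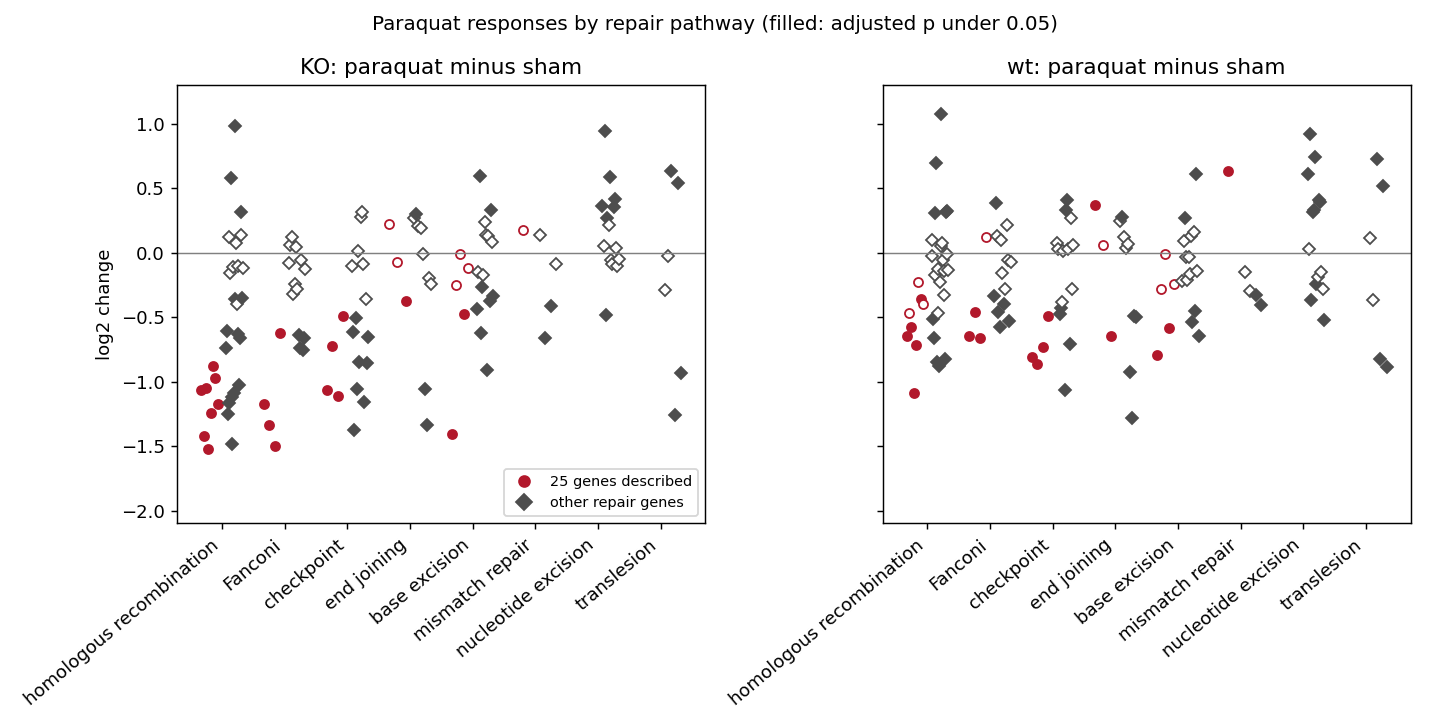
Log2 change under paraquat in KO (left) and wt (right) for the 25 genes (red circles) and 97 other repair genes (grey diamonds) by pathway, filled where the adjusted p is under 0.05. The 8 homologous recombination genes described lie between -0.88 and -1.52 in KO, while the other 23 span -1.48 to 0.98, and nucleotide excision has 6 filled points above 0 and 1 below in KO.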

How the data were processed

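Total RNA of the 12 cultures was amplified and given a biotin label, per the labels' protocols. Per the submitters' processing notes, the authors used RMA and Affymetrix Expression Console (version 1.3.1.187) for the deposited intensity values. Every value is whole (3 to 17695) and array medians are close, so they were read as linear RMA signals and log2 was taken. Rounding makes dim values coarse. The genome build of the probe sets is not given in the sources used here.

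Of 41345 probe sets 23521 carried 1 gene symbol, 1814 several and 16010 none in the platform annotation, which can be old, and the gene IDs of 23328 matched a RefSeq table (GRCm38.p6) without changing a symbol. Each of 22180 genes was represented by its brightest probe set on average, with no filter on signal. All 12 arrays entered 1 fit, with a mean for every group, in limma 3.58.1 (lmFit, eBayes) in R 4.3.3, 2-sided, with Benjamini-Hochberg adjustment over all genes and a threshold of 0.05. The number of arrays limits the precision. The fit was tested on simulated data. The 25 genes, the other lists and the groups were chosen with earlier results of these data known. All 25 genes could be named, and of other lists the genes with the smallest p past the threshold (up to 3 in KO and 2 in wt per repair list, up to 2 in each for proliferation and p53 targets). For promoters, the first window listed per gene was used.

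Alternatives were a replicate block, other normalizations, a filter on dim genes, the mean over probe sets, 16 added before the log2, a variance trend, array weights, a test against 1.5-fold, the 6 arrays compared alone, and leaving out arrays.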

Additional observations from a re-analysis of the deposited data

Results flagged for a closer look

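Fancb was set aside because its response to paraquat differed between the genotypes by the test of the difference itself (KO minus wt, log2 -0.88 ± 0.19, SE, limma adjusted p = 0.033). It fell by 1.34 in KO, with every array lower, and by 0.46 in wt, with every array lower too. Its signals were 30 to 31 in KO paraquat, 72 to 84 in KO sham, 25 to 30 in wt paraquat and 32 to 48 in wt sham, so 3 of the 4 groups lay near or under the array median. Of 22 alternatives 9 kept the call and 13 lost it, with log2 values from -1.07 to -0.69 and, leaving out 1 array at a time, an adjusted p of up to 0.0834.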

How the results depend on the processing

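Over 342 values of the counts of changed genes and of their median change under 23 alternatives, 308 stayed within 1.5 times (counts) or the spread between arrays (medians), 34 moved and 0 reversed. Only a median could be labelled as reversed, and counts of 0 that stayed at 0 are among the 308. Testing against 1.5-fold gave 8 lower under paraquat in KO, 0 lower and 0 higher in wt, 0 higher in KO sham and 0 in the difference between responses. Over all 22180 genes this test gave 371 lower in KO, 492 lower and 702 higher in wt, 22 higher in KO sham, and 3 lower and 21 higher in the difference. The 6 arrays alone gave 17 lower under paraquat in KO, 10 lower and 1 higher in wt, and 6 higher in KO sham. Over all genes these fits gave 2563 lower in KO, 2844 lower and 3000 higher in wt, and 450 higher in KO sham. The filter on dim genes gave 5 and the added 16 gave 3 lower in the difference, against 349 of 13115 and 347 of 22180 genes. The added 16 gave medians of -0.72 (paraquat in KO) and 0.52 (KO sham against wt sham). Without wt sham 2 and KO paraquat 3 the medians were -0.62 (paraquat in wt), 0.49 (KO sham) and -0.30 (difference). The 1.5-fold test sets a higher bar and the smaller fits hold fewer arrays, but what caused these moves was not tested.

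Leaving out each array in turn gave 16 to 19 lower and 0 higher in KO under paraquat (median -1.0004 to -0.92), 13 to 16 lower and 1 to 2 higher in wt (-0.62 to -0.40), 10 to 15 higher and 0 lower in KO sham (0.49 to 0.67), 0 to 1 higher and 0 lower in KO under paraquat against wt (0.10 to 0.19), and 0 to 4 lower and 0 higher in the difference (-0.53 to -0.25). The 4 came without wt sham 1. With the replicate number as a block the counts were 18 lower in KO (Xrcc6 lost), 15 lower and 2 higher in wt, 14 higher in KO sham (Atm lost), 0 under paraquat and 1 in the difference, and Palb2 took the place of Fancb there (adjusted p = 0.0271). Deviations of samples with the same number correlated at -0.07 to 0.09 over 18 pairs, and 16 of 36 correlated best with their own number. These low values show no clear pairing by number, but they cannot exclude one.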

Other observations

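Among the 97 repair genes outside the 25, 24 were higher and 2 lower in KO sham than in wt sham arrays (limma). Of all genes 4.58% were higher and 5.67% lower. By pathway the genes higher in KO sham were 8 of 23 in homologous recombination, 5 of 13 in the Fanconi pathway, 5 of 14 checkpoint genes, 3 of 14 in base excision, 1 of 4 in mismatch repair, 1 of 14 in nucleotide excision and 1 of 6 in translesion synthesis. The 2 lower genes, named after their values were seen, were Aptx of base excision (log2 -0.47) and Rad23b of nucleotide excision (-0.30). In the difference between responses 2 of the 97 were lower and 0 higher, against 0.897% and 1.39% of all genes. The 2 were the checkpoint genes Clspn (-0.90) and Wee1 (-0.71), also named after their values were seen.

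Atr has a second, dimmer probe set, with signals of 34 to 37 in KO paraquat, 32 to 35 in KO sham, 29 to 35 in wt paraquat and 28 to 30 in wt sham arrays, all under the array median.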
